A study of Arabidopsis thaliana with 7 samples.

Results

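The genes described here are the 7 Aux/IAA genes of the IAA7 and IAA8 clades of Arabidopsis thaliana. They were taken by locus from an expression table of 27826 probe sets, each named after 1 locus, and all 7 were found: IAA7 (probe set AT3G23050_at), IAA14 (probe set AT4G14550_at), IAA16 (probe set AT3G04730_at) and IAA17 (probe set AT1G04250_at) in the first clade, and IAA8 (probe set AT2G22670_at), IAA9 (probe set AT5G65670_at) and IAA27 (probe set AT4G29080_at) in the second. Each array carried total RNA of about 40 to 50 pooled embryos at the 8-cell stage, picked by micromanipulator from ovules of untreated plants. Of the 7 arrays, 4 were of wild-type Col-0 embryos and 3 of embryos in the same Col-0 background labelled as mutant for Bodenlos (bdl), which is IAA12. The labels give no zygosity for bdl. The growth protocol mentions antibiotic selection of transgenic seed without saying which plants it applied to. No label ties a replicate to a harvest of its own. The p-values therefore cover the spread between these 7 arrays, which may be technical, and having so few arrays limits precision.

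Aux/IAA proteins are short-lived nuclear repressors. They bind auxin response factors (ARFs) through a C-terminal interaction domain and recruit the corepressor TOPLESS (TPL) through an N-terminal motif. Auxin joins them to the F-box receptors of the TIR1/AFB family, after which they are degraded and the ARFs are released. Many Aux/IAA genes are themselves switched on by auxin, so the family takes part in a feedback loop. In the early embryo the best known pair is IAA12 and the activator MONOPTEROS (ARF5), and the bdl mutation is known as one that stabilises IAA12. Setting the genotypes side by side shows which repressor transcripts have another level in embryos that carry it.

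In the IAA8 clade IAA9 and, less firmly, IAA8 fell in bdl embryos and IAA27 did not pass, while transcripts of the IAA7 clade were too dim on these arrays to be followed. By limma, with Benjamini-Hochberg adjustment over all probe sets and a threshold of 0.05, 2 of the 7 genes were called lower and none higher, where 0.859% of all probe sets were called lower, 0.902% higher and 1.76% in either direction. Among probe sets with mean log2 intensity in the range spanned by IAA8, IAA9 and IAA27, 1.67% were called lower. Without any 1 of the 7 arrays the count was 1, IAA9. The median log2 difference (bdl minus wild type) was -0.37 over the 7 genes and -0.01 over all probe sets. The value of -0.37 is that of IAA14, a dim gene, and the median was -1.55 in the IAA8 clade and -0.13 in the IAA7 clade. In whole embryos, fewer cells of a type and less RNA per cell cannot be told apart.

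IAA9, whose tomato counterpart is known for its part in fruit set and compound leaf shape, had the largest difference of the 7. Its intensity was 316, 349, 342 and 400 in wild type 1 to 4 and 80.1, 101 and 65.0 in bdl 1 to 3. The genotypes were far apart, and the spread within each was small beside the gap. The geometric mean was 350.5 in wild type and 80.8 in bdl, 4.34-fold lower in bdl. The log2 difference was -2.12 ± 0.21 (SE; 4 against 3 arrays; limma, adjusted p = 0.00207), with a 95% interval of -2.60 to -1.64. Of all probe sets, 166 were lowered at least as much, IAA9 included. The call held in all 7 omissions of an array (-2.28 to -1.96).

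IAA8, which in Arabidopsis is linked to lateral root formation, was the other gene that fell. Its intensity was 69.3, 48.3, 55.8 and 48.4 in wild type 1 to 4 and 21.0, 30.1 and 19.7 in bdl 1 to 3. All bdl arrays lay below all wild-type arrays. The geometric mean was 54.8 in wild type and 23.2 in bdl, and the log2 difference was -1.24 ± 0.23 (SE; limma, adjusted p = 0.0422; 95% interval -1.77 to -0.71). This call sat close to the threshold. It was lost without any 1 of the 7 arrays, wild type 1, 2, 3 or 4 or bdl 1, 2 or 3, with log2 differences of -1.43 to -1.12 and adjusted p of 0.0510 to 0.159.

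IAA27, also known as PAP2 for its product's association with phytochrome, lay lower on all bdl arrays but varied most. Its intensity was 60.1, 68.4, 92.0 and 39.3 in wild type 1 to 4 and 23.2, 38.7 and 10.6 in bdl 1 to 3. The genotypes were separated only narrowly, since bdl 2 came close to wild type 4. The log2 difference of -1.55 ± 0.46 (SE) did not pass over all probe sets (limma, adjusted p = 0.211), although its own 95% interval of -2.61 to -0.50 lay below 0. The SD of log2 intensity was 0.51 among wild-type and 0.94 among bdl arrays, against 0.14 and 0.32 for IAA9. The SE of the genotype difference, 0.46 for IAA27, had a median of 0.27 over all probe sets. Without bdl 3 the difference was -1.05, and without bdl 2 it was -1.99.

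**Figure D1:**
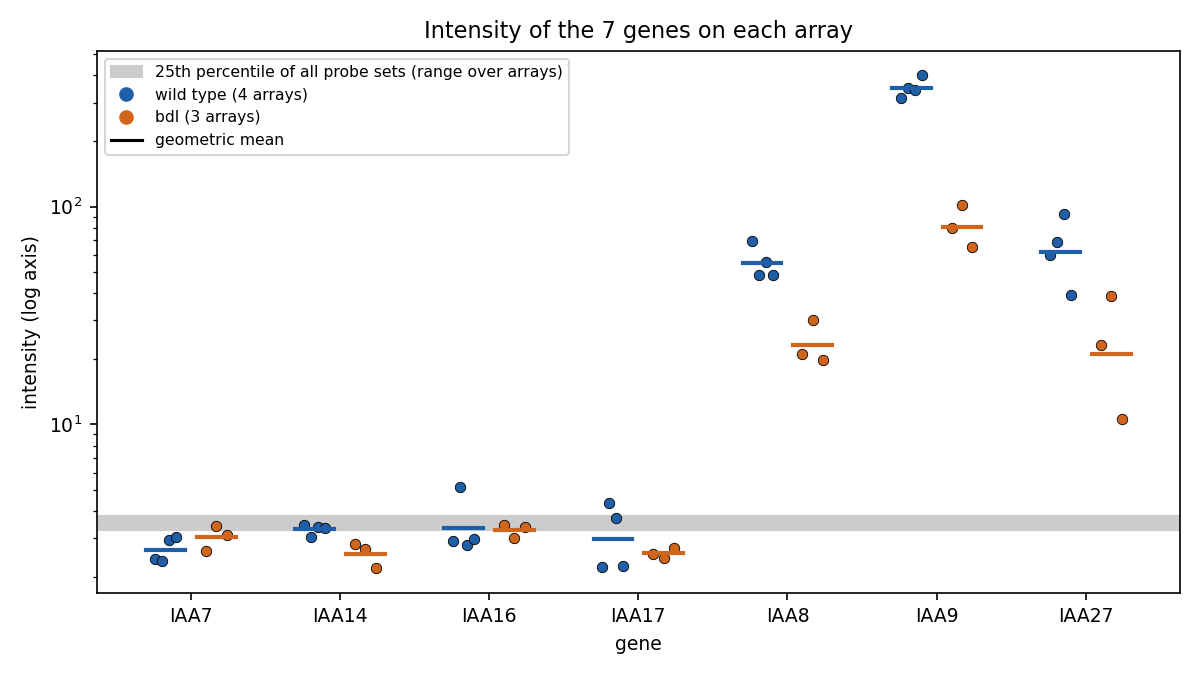
Intensity (log axis) of each of the 7 genes on the 4 wild-type and 3 bdl arrays, with the geometric mean of each genotype as a line and the 25th percentile of all probe sets, 3.27 to 3.79 over the arrays, as a grey band. IAA8, IAA9 and IAA27 lie above the band with bdl below wild type, whereas most values of IAA7, IAA14, IAA16 and IAA17 lie below it. Heights of different genes come from different probe sets and are not compared.

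The 3 genes of the IAA8 clade ordered the bdl arrays alike: bdl 2 was the highest and bdl 3 the lowest in each. Markers of other tissues also differed between these arrays. The mean log2 intensity of 7 pollen genes was 2.32, 4.58 and 1.97 in bdl 1 to 3 and 2.07, 4.38, 2.50 and 6.19 in wild type 1 to 4, so it was high in wild type 2, wild type 4 and bdl 2. None of the 7 pollen genes was called by limma, and 0 had an unadjusted p under 0.05. The mean of 12 seed coat genes was 3.10, 2.80 and 2.20 in bdl and 2.80 to 3.39 in wild type, lowest in bdl 3. By limma 0 of the 12 were called and 3 had an unadjusted p under 0.05, against 10.7% of all probe sets. In summed intensity the seed coat list ran from 152 to 325 in wild type, and in bdl from 66.5 to 193, and the pollen list from 32.3 to 810 and from 28.9 to 320. The part of these tissues in the spread of IAA8, IAA9 and IAA27 was not tested. On the 4 arrays with the least pollen signal (wild type 1 and 3, bdl 1 and 3), a setting chosen once the values had been seen, the log2 differences were -2.19 for IAA9, -1.61 for IAA8 and -2.25 for IAA27. That setting leaves out bdl 2, the highest bdl array of all 3 genes, and without bdl 2 alone they were -2.28, -1.43 and -1.99, so these values do not bear on the pollen signal. With fewer arrays none of the 3 was called there (limma, adjusted p = 0.0818, 0.154 and 0.25).

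The labelled tissue bore its own markers. All 12 embryo genes lay above the array median on every wild-type array, and 11 of 12 did on every bdl array, the exception being ABI3, a seed maturation regulator. Their mean log2 intensity was 8.20 to 8.38 in wild type, and in bdl 7.46 to 7.63, a range without overlap. Of the 12, PDF1, ABI3, DRN and BBM fell, by 2.83, 2.24, 1.99 and 1.63 on the log2 scale. FUS3 rose by 1.02 (limma, adjusted p = 0.0451) and 7 did not pass, where 0.859% of all probe sets were called lower and 0.902% higher. The part of the embryo marker shift in the differences of IAA8, IAA9 and IAA27 was not tested. Of 11 endosperm genes, 2 lay above the array median on each array, and the list mean was 2.48 to 2.70 in wild type, and in bdl 2.25 to 2.60. None was called by limma and 2 had an unadjusted p under 0.05, against 10.7% of all probe sets. In summed intensity the endosperm list ran from 256 to 396 in wild type, and in bdl from 130 to 248, lower without overlap. The part of endosperm in the differences of IAA8, IAA9 and IAA27 was not tested. IAA12, the mutated gene, was higher in bdl, with an intensity of 135 to 167 on the wild-type arrays and 432 to 477 on those of bdl. A probe set reads any copy of the gene, so this level is no check of the genotype.

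None of the 4 genes of the IAA7 clade passed, and none had an unadjusted p under 0.05 (limma). Of their 28 values over the 7 arrays, 24 lay below the 25th percentile of all probe sets on the same array and all 28 below the array median. Detection calls were not used here, so it is not known whether any of these values exceeds background. Among the 3790 probe sets with mean log2 intensity in the range of these 4 genes, 0 were called (0%), and 57 (1.5%) had an unadjusted p under 0.05, against 10.7% of all probe sets. A lack of a call therefore does not show that the transcripts were alike in both genotypes.

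IAA14, known as SOLITARY-ROOT for the loss of lateral roots in its stabilised mutant, came nearest to a difference. Its intensity was 3.47, 3.03, 3.39 and 3.33 in wild type 1 to 4 and 2.83, 2.69 and 2.19 in bdl 1 to 3. The bdl arrays lay below the wild-type arrays by a small margin. The log2 difference was -0.37 ± 0.18 (SE; limma, adjusted p = 0.524), with a 95% interval of -0.78 to 0.04. Together with IAA8, IAA9 and IAA27 it makes 4 of 7 genes whose bdl arrays all lay below wild type, against 5.53% of all probe sets.

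IAA7, known as AXR2 from an auxin-resistant mutant, showed overlapping genotypes. Its intensity was 2.41, 2.35, 2.93 and 3.04 in wild type and 2.62, 3.41 and 3.11 in bdl, and the log2 difference was 0.19 ± 0.19 (SE; limma, adjusted p = 0.8200; 95% interval -0.26 to 0.63). It was the only gene of the 7 with a value above 0. IAA17, known as AXR3 from a mutant with altered auxin responses, was uneven within wild type. Its intensity was 2.20, 4.34, 3.71 and 2.24 in wild type and 2.55, 2.43 and 2.70 in bdl, so all bdl values fell between the wild-type ones (log2 difference -0.22 ± 0.28 SE; limma, adjusted p = 0.859; 95% interval -0.87 to 0.43).

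IAA16, whose stabilised form is known to reduce responses to auxin and abscisic acid, was near 0. Its intensity was 2.92, 5.17, 2.79 and 2.99 in wild type and 3.44, 3.01 and 3.38 in bdl. Wild type 2 stood above all other arrays, which overlapped. The log2 difference was -0.03 ± 0.25 (SE; limma, adjusted p = 0.9795; 95% interval -0.62 to 0.55), and it was 0.17 without wild type 2 and 0.02 without bdl 2, so its sign rests on single arrays. The lowest bound among the intervals of IAA7, IAA14, IAA16 and IAA17 was -0.87, that of IAA17.

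Differences between the genes themselves were tested within arrays, where the scale of an array cancels. For each of 12 pairs the log2 intensity of one gene minus that of the other was compared between genotypes with an exact permutation test over the 35 splits of the arrays (2-sided on the size of the difference, Benjamini-Hochberg over the 12 pairs). The smallest p this test can give is 0.0286, which after adjustment came to 0.114 for the 3 pairs that reached it, so 0 of the 12 pairs passed and 3 did before adjustment. In the IAA8 clade, the fall of IAA9 was not shown to exceed that of IAA8: the within-array value of IAA8 minus IAA9 was -3.05 to -2.19 in wild type, and in bdl -1.93 to -1.72, a change of 0.88 (exact p = 0.0571, adjusted 0.171). IAA8 against IAA27 changed by 0.31 (exact permutation p = 0.486, adjusted 0.686) and IAA9 against IAA27 by -0.56 (exact permutation p = 0.314, adjusted 0.686), with overlapping arrays in both. In the IAA7 clade, IAA7 minus IAA14 was -0.53 to -0.13 in wild type, and in bdl -0.11 to 0.51, a change of 0.56 (exact permutation p = 0.0286, adjusted 0.114), and the other 5 pairs had an adjusted p of 0.686.

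In the IAA7 clade 3 genes sit next to another Aux/IAA gene, with 0 protein-coding genes between them in the RefSeq annotation: IAA7 beside IAA2 on chromosome 3, IAA14 beside IAA1 on chromosome 4 and IAA17 beside IAA3 on chromosome 1. The neighbours IAA1 and IAA2 belong to a clade of auxin-inducible genes, and both fell. IAA1 had an intensity of 40.1, 79.2, 62.6 and 65.5 in wild type and 3.02, 3.39 and 3.62 in bdl, and its log2 difference was -4.17 ± 0.25 (SE; limma, adjusted p = 0.000207). IAA14 beside it differed by -0.37, and the within-array change of IAA14 minus IAA1 was 3.80 (exact permutation p = 0.0286, adjusted 0.114), from -4.71 to -3.53 among wild-type arrays and -0.73 to -0.09 among bdl arrays. IAA2 had an intensity of 14.0, 11.7, 10.6 and 15.9 in wild type and 2.44, 2.66 and 2.74 in bdl (-2.31 ± 0.20 SE; limma, adjusted p = 0.00123). IAA7 minus IAA2 changed by 2.49, again at the smallest p of the test, and its arrays did not overlap. In the third pair neither gene moved past the spread, with IAA3 at a log2 difference of 0.00 and IAA17 at -0.22, and the within-array change was -0.23 (exact permutation p = 0.543, adjusted 0.686). Both IAA3 and IAA17 lay below the array median on all 7 arrays, so a change in them could be missed. On the bdl arrays IAA1 and IAA2 lay near or below the 25th percentile of all probe sets, as IAA7 and IAA14 did in both genotypes. A fall in IAA7 or IAA14 could therefore be missed. The changes of IAA14 minus IAA1 and IAA7 minus IAA2 largely restate the falls of IAA1 and IAA2. They do not show that neighbours responded differently.

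**Figure D2:**
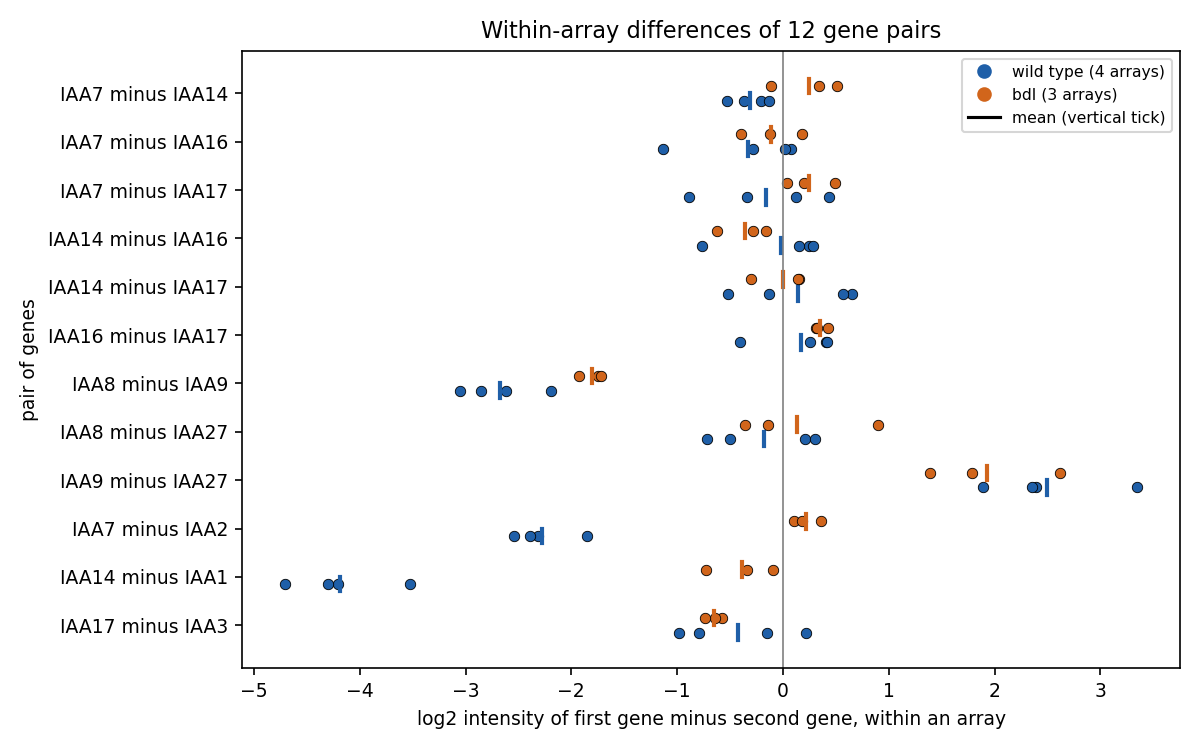
Log2 intensity of the first gene minus that of the second within each array, for the 12 pairs, with wild-type arrays in blue, bdl arrays in orange and group means as vertical ticks. The widest gaps are IAA14 minus IAA1 (a change of 3.80) and IAA7 minus IAA2 (2.49), and the genotypes are also apart for IAA8 minus IAA9 (0.88) and, narrowly, IAA7 minus IAA14 (0.56); no pair passed after adjustment.

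Of the remaining Aux/IAA family, 22 genes in all, 6 were called lower, 1 was called higher and 15 were not called. Of all probe sets, 0.859% were called lower and 0.902% higher. Their median log2 difference was -0.48. A value below 0 was seen in 18 of these 22 and in 6 of the 7 genes of the IAA7 and IAA8 clades, against 51.7% of all probe sets. The 6 include IAA14, IAA16 and IAA17, which were too dim to be followed, so their signs carry little weight. Among the 22, the 3 with the smallest p that fell were IAA30, at -4.87, a family member without the degradation motif, IAA1 at -4.17 and IAA2 at -2.31. IAA12 was the member that rose, at 1.59 ± 0.17 (SE; limma, adjusted p = 0.00287). Several of these genes, IAA1 and IAA2 among them, were so dim in bdl that their falls may be understated, and the sizes are not ranked here.

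**Figure D3:**
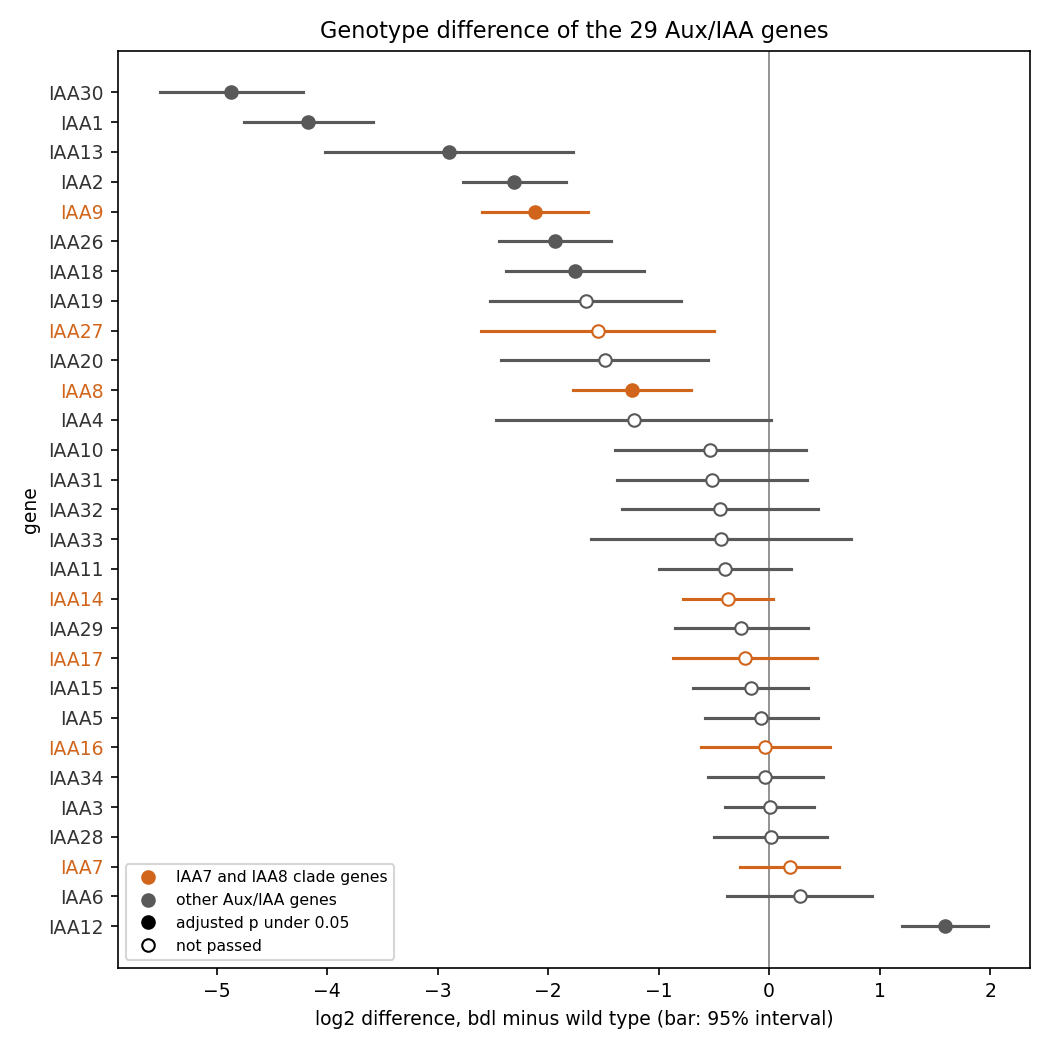
Log2 difference (bdl minus wild type) with its 95% interval for all 29 Aux/IAA genes, the 7 genes of the IAA7 and IAA8 clades in orange and the other 22 in grey, filled where the adjusted p was under 0.05. IAA9 (-2.12), IAA27 (-1.55) and IAA8 (-1.24) lie in the lower part of the family, IAA14, IAA17, IAA16 and IAA7 between -0.37 and 0.19, and IAA12 alone is filled on the higher side.

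The partners of these repressors were not called. Of 6 TIR1/AFB receptor genes none passed (limma; 0 at an unadjusted p under 0.05), with a median of 0.01, and the smallest p belonged to AFB3, an F-box auxin receptor, at 0.37 ± 0.34 (SE). Of 5 TPL/TPR corepressor genes none passed by limma, 4 had a value below 0, and the median was -0.34. An unadjusted p under 0.05 was seen in 2, against 10.7% of all probe sets, and these 2 went opposite ways. TPR1, named after its values were seen, was at -0.92 ± 0.40 (SE; limma, adjusted p = 0.461). TPR3, which had the smallest p, was at 0.60 ± 0.20 (SE; limma, adjusted p = 0.289). The intensity of TPR3 was 61.9 to 78.5 in wild type, and in bdl 85.5 to 126, without overlap. Such a lack of overlap, in either direction, was seen for 11.2% of all probe sets. Of the 5 activator ARF genes none passed (limma; 0 at an unadjusted p under 0.05), with a median of -0.20. ARF7, the activator that IAA14 is known to hold back in lateral root initiation, had the smallest p at -0.38 ± 0.22 (SE; adjusted p = 0.627).

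The profiles nearest to IAA9 and IAA8 over the 7 arrays were sought among 13912 probe sets with mean log2 intensity above the 50th percentile, as the smallest root mean square difference after each gene was centred on its own mean. For IAA9 they were REV, a class III HD-ZIP transcription factor gene of adaxial and vascular patterning (0.20 on the log2 scale), AT5G58620, listed as TZF9, a tandem zinc finger gene (0.20), and PLT1, an AP2-type regulator of the root stem cell niche (0.21). REV had an intensity of 65.4, 48.2, 49.3 and 54.4 in wild type and 12.5, 17.7 and 10.5 in bdl. Its bdl arrays ran in the order of IAA9, but wild type 1 was its highest wild-type array and the lowest of IAA9. PLT1 had 102 to 123 in wild type, and 37.1, 31.2 and 25.8 in bdl 1 to 3. AT5G58620 had 9.67, 9.37 and 8.01 in bdl 1 to 3, so PLT1 and AT5G58620 were highest in bdl 1, unlike IAA9. For IAA8 they were EBF1, an F-box gene of ethylene signalling (0.19), AT5G02550 (0.20) and NAC102, a NAC transcription factor gene (0.20). EBF1 had an intensity of 286, 269, 318 and 218 in wild type and 129, 163 and 92.9 in bdl. REV, AT5G58620 and PLT1 were called (limma, adjusted p = 0.00432, 0.00427 and 0.00244), as was NAC102 (0.0463), while EBF1 (0.0813) and AT5G02550 (0.0837) were not. The likeness is largely that of the genotype step, which the measure includes, and it describes 7 arrays only.

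**Figure D4:**
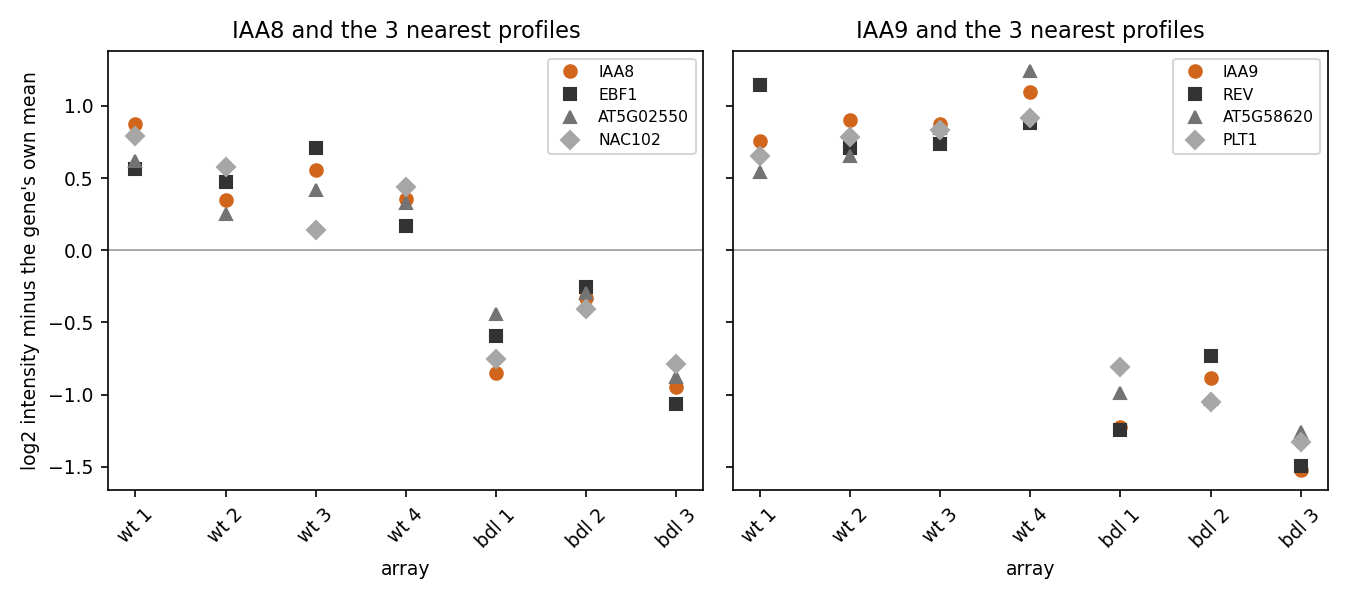
Log2 intensity minus each gene's own mean on the 7 arrays (wt, wild type), for IAA8 (left) and IAA9 (right) with the 3 nearest profiles of each. In all 8 genes the 4 wild-type arrays lie above 0 and the 3 bdl arrays below, with a larger step for IAA9, REV, AT5G58620 and PLT1 (-2.12 to -1.86) than for IAA8, EBF1, AT5G02550 and NAC102 (-1.24 to -0.94).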

How the data were processed

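The authors deposited 1 table of linear intensity values, a row per probe set and a column per array. Per the submitters' processing notes they used RMA, with no version stated. No source used here gives the chip definition or the genome build. All values were above 0, and log2 was taken with no pseudocount or further scaling. The test was limma 3.58.1 (R 4.3.3; lmFit, eBayes, 2-sided), with genotype as sole term and Benjamini-Hochberg adjustment over all 27826 probe sets. Names came from a RefSeq table of TAIR10.1, used only for names and neighbours, which held 27241 of the loci; no sequences were used. None of the 7 genes was among the 176 probe sets identical to another. The genes named were the 7, IAA12, the locus neighbours, up to 3 called genes per auxin pathway list by smallest p (else 1), and the 3 nearest profiles of each called gene. TPR1, SUC5 and the called embryo markers were named after their values were seen. Members and lists were chosen with earlier results of these data known. The fit was tested on simulated data. Alternatives were scaling, filters on dim genes, variance model, array weights, replicate number as a block, a pseudocount of 1, other thresholds, identical probe sets dropped, and leaving out arrays. Figures were drawn with matplotlib 3.10.9.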

Additional observations from a re-analysis of the deposited data

Results flagged for a closer look

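In 17 checks of the 4 wild-type arrays, 1 value stood apart from the other 3, where chance gives about 1 in 20. For IAA16, wild type 2 gave a log2 intensity of 2.37, and the others gave 1.48 to 1.58. It was the only value of IAA16 above the 25th percentile of its array, and without that array the log2 difference of IAA16 was 0.17 in place of -0.03. With 3 arrays, bdl was not checked in this way.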

How the results depend on the processing

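IAA9 kept its direction in every setting run and its call in all but that of the 4 arrays with the least pollen signal (limma, -2.19; adjusted p = 0.0818), chosen once the values had been seen. There 0 of 7 clade genes, 2 of 38 other auxin pathway genes and 105 of all genes were called, and IAA16 was at 0.26. IAA8 was always lower. The number of clade genes called was 1 in place of 2 with limma-trend (IAA8 at -1.24, adjusted p = 0.0692), at a threshold of 0.01 and in every omission of an array. The labels do not say whether replicate numbers pair the arrays. Deviations of same-numbered arrays correlated at 0.04 to 0.05 across genes, but differently numbered arrays were not compared, so this does not settle it. With the replicate block 1 clade gene, 4 other pathway genes and 188 of all genes were called, against 2, 7 and 490. There IAA9, at -2.05, passed only narrowly (limma, adjusted p = 0.0466), and IAA8, at -1.30, did not pass (limma, adjusted p = 0.213). Over the 7 omissions the counts were 5 to 7 other pathway genes and 278 to 374 of all genes, and the clade median was -0.45 to -0.26. Filters at the 25th and 50th percentile kept only IAA8, IAA9 and IAA27, with a median of -1.55. IAA16 ran from -0.12 to 0.17 over the omissions. Of the pair differences, the signs of IAA7 minus IAA16 (-0.048 to 0.36), IAA14 minus IAA17 (-0.37 to 0.021), IAA16 minus IAA17 (-0.0053 to 0.27) and IAA8 minus IAA27 (-0.072 to 0.56) turned. With an array left out, 15 or 20 splits remain and no pair could pass. Scaling moved the median of all genes by less than 0.1. The background level is unknown, which limits the IAA7 clade.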
